A study of Mus musculus with 68 samples.

Results

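The neuronal nicotinic receptor subunits are described here in single neurons patched as dopaminergic in the ventral tegmental area (VTA), a midbrain nucleus that sends dopamine to the striatum and cortex. The members were the 8 genes whose symbol in the count table was *Chrna3*, *Chrna4*, *Chrna5*, *Chrna6*, *Chrna7*, *Chrnb2*, *Chrnb3* or *Chrnb4*, out of 36172 genes. In Patch-seq, a neuron is recorded through a glass pipette and its contents are then drawn into the same pipette and sequenced. The table held 68 such neurons from 12-month-old mice, 33 labelled 3xTg and 35 labelled WT. 3xTg mice, a model of Alzheimer's disease, were homozygous for humanized transgenes, among them APP Swe and Tau P301L, and the WT controls, of mixed strain background too, were bred as their own line and lacked the transgenes. Both sexes were used. The study as a whole identified VTA dopamine neurons in slices by position and electrical properties. For the Patch-seq neurons it measured a current after a voltage step and recorded no further electrical properties. No label ties a cell to a mouse. Each genotype therefore counts as 1 sample, there is no test between genotypes, and every interval below covers counting error only.

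Nicotinic receptors are channels of 5 subunits that open when acetylcholine binds. In midbrain dopamine neurons the α4 and β2 subunits form the main high-affinity receptor, α6 and β3 are a signature of catecholamine neurons and join β2-containing receptors there, and α5 is an accessory subunit. α3 and β4 form the receptor of autonomic ganglia and the medial habenula, and α7 forms receptors from copies of itself. *Chrna5*, *Chrna3* and *Chrnb4* lie side by side in 1 gene cluster, and *Chrnb3* and *Chrna6* are neighbours in another.

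In the mm10 coordinates of the table, the first cluster lay on chromosome 9, with *Chrna5* at chr9:54980880-55007779 on the plus strand, *Chrna3* at chr9:55011343-55026559 and *Chrnb4* at chr9:55028156-55048544, both on the minus strand. *Chrnb3* (chr8:27368711-27399730, plus) and *Chrna6* (chr8:27403212-27413944, minus) formed the pair on chromosome 8. *Chrna4* lay at chr2:181022311-181039177, *Chrnb2* at chr3:89753448-89764632 and *Chrna7* at chr7:63098692-63212526, each on the minus strand. In the GENCODE M21 annotation, *Chrnb4* overlaps an antisense gene and *Chrna7* an unclassified transcript on its own strand. The 3′ ends of *Chrna5* and *Chrna3*, which face each other, overlap by 1304 bases in RefSeq GRCm38.p6 but not in the table. Whether counting used strand is not given in the sources used here, so reads of those overlaps cannot be assigned with certainty.

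The subunits are related in sequence, and reads had been accepted at 90% identity or more, so the closest stretch between members is shown first. Among the 28 pairs, the best ungapped match of 90 coding bases, the length of a trimmed read, ran from 64.4% to 90% identity. A single pair reached the limit, *Chrna4* with *Chrna3*, in exon 5 of each gene (chr2:181029153-181029242 and chr9:55015729-55015818, both minus strand, mm10). The 9 mismatches are in capitals.
Chrna4: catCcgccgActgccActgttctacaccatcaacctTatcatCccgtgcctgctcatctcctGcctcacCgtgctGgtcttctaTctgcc
Chrna3: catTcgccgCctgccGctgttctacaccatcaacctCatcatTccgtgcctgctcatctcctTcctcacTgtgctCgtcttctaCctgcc
The next pair, *Chrnb2* with *Chrnb4*, reached 88.9%, so no other pair met the limit over a stretch of that length. Counts that were not whole numbers made up 28.3% of the counts above 0 of *Chrna4* and 26.1% of those of *Chrna3*, against 80.3% for *Chrna6*, 73% for *Chrnb3* and 61.2% for *Chrnb4*.

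The promoters of the chromosome 9 cluster are shown because its 3 genes are those with a genotype ratio below 1 in the results that follow. The RefSeq windows (GRCm38.p6, 250 bases before to 50 after a start) are chr9:54980630-54980929 and chr9:54981238-54981537 for the 2 starts of *Chrna5*, chr9:55026513-55026812 for *Chrna3* and chr9:55048495-55048794 for *Chrnb4*. Capitals mark GC boxes, GGGCGG or its reverse complement, the letters bound by Sp1-type factors.
Chrna5 first start: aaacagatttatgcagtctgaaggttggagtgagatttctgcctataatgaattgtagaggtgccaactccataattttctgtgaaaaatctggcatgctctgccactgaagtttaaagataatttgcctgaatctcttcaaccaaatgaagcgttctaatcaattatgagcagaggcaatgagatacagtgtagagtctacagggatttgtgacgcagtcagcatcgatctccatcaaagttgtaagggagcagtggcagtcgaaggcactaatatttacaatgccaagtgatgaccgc
Chrna5 second start: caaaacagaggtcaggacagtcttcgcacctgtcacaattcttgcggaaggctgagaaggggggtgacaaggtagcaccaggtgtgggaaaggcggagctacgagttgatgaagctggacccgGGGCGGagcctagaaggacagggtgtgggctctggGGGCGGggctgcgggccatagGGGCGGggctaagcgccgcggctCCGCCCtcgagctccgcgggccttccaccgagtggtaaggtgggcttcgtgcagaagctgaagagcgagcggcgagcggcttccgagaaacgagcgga
Chrna3: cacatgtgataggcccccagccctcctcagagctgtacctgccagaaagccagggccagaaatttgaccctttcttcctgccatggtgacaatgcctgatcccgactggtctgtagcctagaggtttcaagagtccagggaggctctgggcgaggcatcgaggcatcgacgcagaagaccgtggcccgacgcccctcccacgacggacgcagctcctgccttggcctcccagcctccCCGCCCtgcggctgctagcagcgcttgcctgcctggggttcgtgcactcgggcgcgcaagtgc
Chrnb4: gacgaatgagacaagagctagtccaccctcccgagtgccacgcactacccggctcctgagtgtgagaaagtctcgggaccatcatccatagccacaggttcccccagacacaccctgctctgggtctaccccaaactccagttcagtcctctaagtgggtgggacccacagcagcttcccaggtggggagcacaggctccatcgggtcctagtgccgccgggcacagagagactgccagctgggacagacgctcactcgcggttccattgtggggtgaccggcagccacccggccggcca
The second *Chrna5* window held 4 GC boxes, that of *Chrna3* 1, and those of the first *Chrna5* start and *Chrnb4* none. Of 32851 promoters of the same length, 35.7% held at least 1. The letters TATAAA, found in 13.6% of all promoters, were in none of these 4 windows.

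The total count per cell had a median of 1194457 (676556 to 1678624) in 3xTg and 982390 (492505 to 1327367) in WT, and the median number of genes counted was 8511 and 7476. The label numbers fell into separate runs, 24 to 55 and 76 to 92 for 3xTg and 1 to 22, 57 to 74 and 94 to 96 for WT, and all 68 matched positions of a grid of 8 by 12. Values within the first and second run of each genotype are therefore given beside the pooled ones. All 6 dopamine neuron markers (*Th*, *Slc6a3*, *Slc18a2*, *Ddc*, *Nr4a2* and *Pitx3*) were counted, the first 4 in all 68 cells, with log2 ratios of 3xTg over WT from 0.21 to 0.43. The authors had kept only cells positive for *Th*, *Slc6a3* and *Slc18a2*, so the presence of these in every cell followed from that choice. Kept cells were also to be negative for *Pvalb*, *Tmem119*, *P2ry12* and *Aldh1l1*, yet 5 cells of each genotype had a count of at least 1 of them.

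The α6 and β3 subunits dominated these neurons. *Chrna6* had a count in 32 of 33 3xTg cells and 34 of 35 WT cells, and *Chrnb3* in 33 and 30. Counts of a genotype were summed over its cells and expressed per 1000000 counts (CPM). *Chrna6* stood at 979 CPM in 3xTg (95% Poisson interval 969 to 989) and 805 in WT (795 to 814), and *Chrnb3* at 704 (696 to 713) and 576 (568 to 584).

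For levels between genes, CPM was divided by the length in kilobases of the RefSeq-linked transcript with the longest coding sequence. On this scale *Chrna6* was at 337 CPM per kb in 3xTg and 277 in WT, *Chrnb3* at 154 and 125, and *Chrna4* at 40 and 37.2. These 3 led in both genotypes in this order by the sums. *Chrna6* exceeded *Chrnb3* per kb in 30 of 33 3xTg cells and 29 of 35 WT cells. *Chrnb3* exceeded *Chrna4* in 32 and 26 cells. The third place was less clear in WT, where *Chrna4* exceeded *Chrna5*, the next gene, in 19 cells and lay below it in 15.

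Below them the order differed between genotypes. In 3xTg cells *Chrnb2* (10.5 CPM per kb) was followed by *Chrna5* (6.78), *Chrnb4* (3.91), *Chrna7* (3.83) and *Chrna3* (2.51). In WT cells *Chrna5* (14.6) was followed by *Chrna3* (10.5), *Chrnb2* (9.24), *Chrnb4* (5.77) and *Chrna7* (3.49). Within these lower ranks the middle 50% of cells of each neighbouring pair overlapped, except for *Chrnb4* and *Chrna7* in WT, and the counting intervals of *Chrnb4* and *Chrna7* overlapped in 3xTg. Apart from that pair, the order of the lower members was within the spread of cells, and cell by cell some neighbours stood the other way round. *Chrnb4* exceeded *Chrnb2* in 24 of 35 WT cells and lay below it in 11, and it exceeded *Chrna5* in 17 of 33 3xTg cells and lay below it in 15. With coding length in place of transcript length, *Chrnb2* moved to rank 4 in WT (39.3 CPM per coding kb), above *Chrna3* (30.3) and *Chrna5* (20.9).

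**Figure D1:**
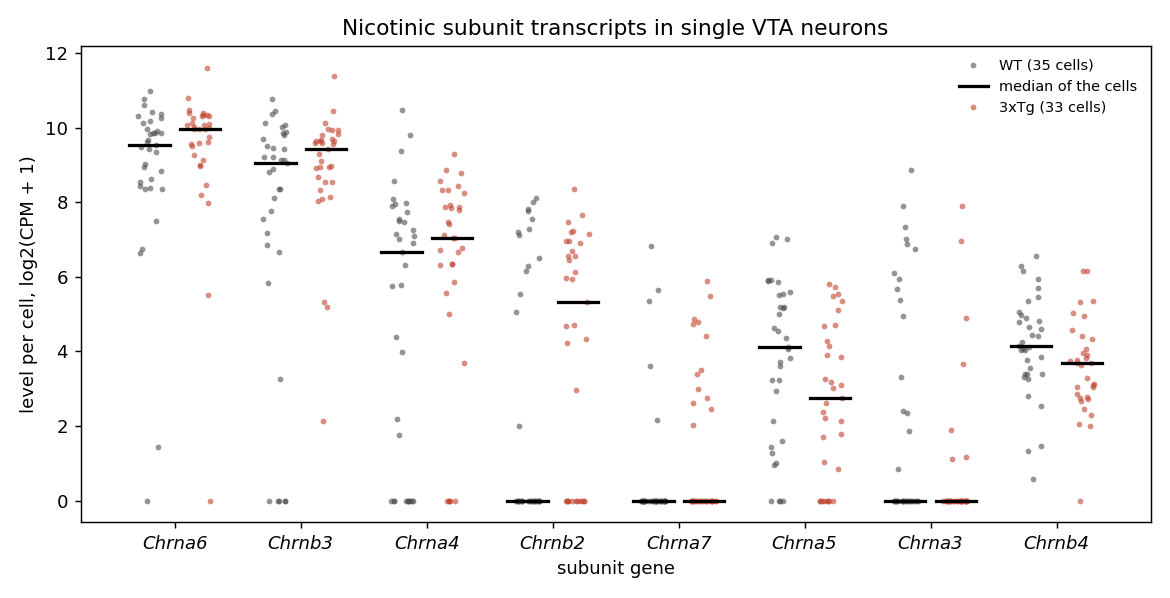
Level of each subunit in each cell as log2(CPM + 1), with WT cells in grey, 3xTg cells in red and a line at the median of the cells. *Chrna6* and *Chrnb3* lie highest in both genotypes, while the medians of *Chrna7* and *Chrna3* are at 0 and those of *Chrnb2* are at 0 in WT alone.

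Across single cells, *Chrna6* had a median of 1002 CPM over 3xTg cells (lowest 0, highest 3121) and 744 over WT cells (lowest 0, highest 2034). *Chrnb3* had a median of 683 CPM over 3xTg cells (lowest 3.37, highest 2684) and 533 over WT cells (lowest 0, highest 1747). The ranges overlapped almost fully, and the 5 cells without *Chrnb3* were all WT, 4 of them in the first WT run. The log2 ratio of the sums was 0.28 for *Chrna6* (counting interval 0.26 to 0.30) and 0.29 for *Chrnb3* (0.26 to 0.32), each below 2-fold. It was above 0 in both pairs of runs, at 0.21 and 0.35 for *Chrna6* and 0.29 and 0.14 for *Chrnb3*. The dopamine markers had ratios of a like size, and whether they share a source was not tested.

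*Chrna4*, the α subunit of the high-affinity receptor, had a count in 28 of 33 3xTg cells (84.8%, Clopper-Pearson interval 68.1% to 94.9%) and 25 of 35 WT cells (71.4%, 53.7% to 85.4%). It had a median of 132 CPM over 3xTg cells (lowest 0, highest 623) and 99.8 over WT cells (lowest 0, highest 1422). The groups overlapped, and the highest cell was WT cell 11. The sums, 183 and 170 CPM, gave a log2 ratio of 0.11 (0.06 to 0.16), which was −0.08 with size factors, −0.03 within the second runs and 0.35 without WT cell 11.

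*Chrnb2*, its β partner, was counted in 22 of 33 3xTg cells (66.7%, 48.2% to 82%) and 14 of 35 WT cells (40%, 23.9% to 57.9%). It had a median of 39.3 CPM over 3xTg cells (lowest 0, highest 325) and 0 over WT cells (lowest 0, highest 277). The sums were nevertheless close, 67 CPM for 3xTg and 59.1 for WT, a log2 ratio of 0.18 (0.10 to 0.27). More 3xTg cells had a count, but the WT cells that had one held more of it, with a median of 142 CPM against 93. Within the first runs the log2 ratio was 0.85 and within the second −0.34. The WT runs themselves differed, with *Chrnb2* in 4 of 17 cells of the first and 9 of 15 of the second.

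The size of the difference for these genes depended on the scale on which cells were averaged. By the mean over cells of log2(normalised count + 1), *Chrnb2* was 1.53 higher in 3xTg, *Chrnb3* 1.5 and *Chrna4* 1.29, differences smaller than the SD over the cells of either genotype (1 sample each). By the mean of CPM over cells, without the log, the log2 ratios were 0.28 for *Chrnb2*, 0.33 for *Chrnb3* and 0.0083 for *Chrna4*. For *Chrnb3* the means on the log2 scale were 8.83 ± 2.01 in 3xTg and 7.33 ± 3.45 in WT (SD over 33 and 35 cells). On the log2 scale the median of all 13283 genes counted in at least 7 cells was 0.35 above 0, against −0.05 for the summed counts. With each cell thinned to 700471 counts, *Chrnb2* was counted in 67.7% of 3xTg and 46.7% of WT cells, *Chrna4* in 90.3% and 76.7% and *Chrnb3* in 100% and 86.7%, after 2 3xTg and 5 WT cells below that depth were left out.

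*Chrna7*, whose protein forms receptors on its own, was sparse. It had a count in 13 of 33 3xTg cells (39.4%, 22.9% to 57.9%) and 5 of 35 WT cells (14.3%, 4.81% to 30.3%). It ran from 0 to 58.5 CPM in 3xTg and from 0 to 112 in WT, with a median of 0 in both. The sums were 7.96 and 7.25 CPM, a log2 ratio of 0.14 (−0.12 to 0.38), and this value rested on 1 neuron. WT cell 94 held 133 of the 247 WT counts, and without it the ratio was 1.20. It was −0.41 without the cells that held *Pvalb*, *Tmem119*, *P2ry12* or *Aldh1l1*, and −1.10 without those that held *Tmem119*, *P2ry12*, *C1qa* or *C1qb*, so its direction was not settled. Within the first runs the ratio was −0.04 and within the second 3.22, where 8 of 12 3xTg cells and 2 of 15 WT cells had a count.

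The 3 genes of the chromosome 9 cluster had lower sums in 3xTg. *Chrna3*, the ganglionic α subunit, was counted in 7 of 33 3xTg cells (21.2%, 8.98% to 38.9%) and 16 of 35 WT cells (45.7%, 28.8% to 63.4%). It ran from 0 to 236 CPM in 3xTg and from 0 to 465 in WT, with a median of 0 in both, so most cells of either genotype had none. The sums were 10.9 CPM (9.91 to 12.1) in 3xTg and 45.9 (43.6 to 48.2) in WT, that is, a log2 ratio of −2.07 (−2.23 to −1.91), or 4.19-fold lower counts in 3xTg. The ratio was −1.57 within the first runs and −2.46 within the second. Leaving out 1 cell moved it between −2.96, without 3xTg cell 39, and −1.62, without WT cell 14. In the WT cells *Chrna3* was counted in 4 of 17 cells of the first run and 10 of 15 of the second, and the sum of the second run was above that of the first by 1.02 on the log2 scale.

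*Chrna5*, the accessory subunit, was counted in 25 of 33 3xTg cells (75.8%, 57.7% to 88.9%) and 31 of 35 WT cells (88.6%, 73.3% to 96.8%). It had a median of 5.70 CPM over 3xTg cells (lowest 0, highest 55.3) and 16.2 over WT cells (lowest 0, highest 134), with wide overlap. The sums of 12.7 CPM (11.6 to 13.9) and 27.5 CPM (25.7 to 29.3) gave a log2 ratio of −1.11 (−1.27 to −0.95). The difference between runs of 1 genotype was as large: *Chrna5* was higher in the second than in the first run by 1.22 in WT and by 0.91 in 3xTg. Within the first runs the genotype ratio was −0.75 and within the second −1.06. Without WT cell 95 it was −0.95, and without WT cell 5 it was −0.99.

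*Chrnb4*, the β partner of α3, had a count in 32 of 33 3xTg cells and 34 of 35 WT cells but at a low level. It had a median of 11.9 CPM over 3xTg cells (lowest 0, highest 70.2) and 16.7 over WT cells (lowest 0.51, highest 92.5). The sums of 14.6 (13.3 to 15.8) and 21.5 CPM (19.9 to 23.1) gave a log2 ratio of −0.56 (−0.72 to −0.40). This difference was not present in the first runs (−0.03, −0.27 to 0.20) and was −1.16 in the second.

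**Figure D2:**
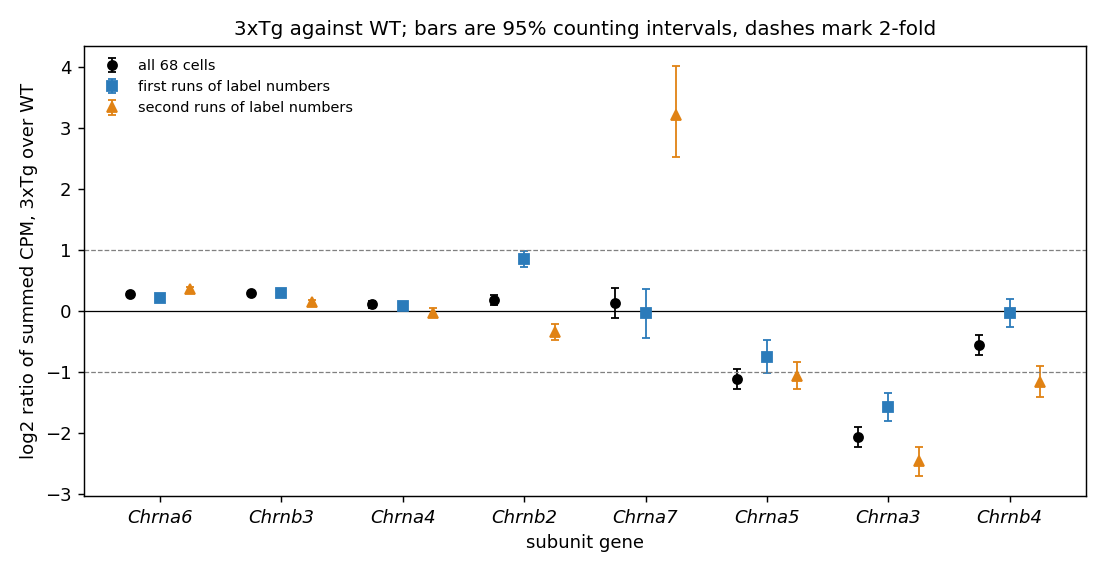
Log2 ratio of summed CPM, 3xTg over WT, for each subunit over all cells (circles) and within the first (squares) and second (triangles) runs of label numbers, with 95% counting intervals and dashed lines at 2-fold. *Chrna3* is below −1 in all 3 sets, while *Chrna7*, *Chrnb2* and *Chrnb4* shift between the runs.

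Of the 8 subunits, 2 were at least 2-fold lower in 3xTg by the summed counts (*Chrna3* and *Chrna5*), where 13.4% of all 13283 genes counted in at least 7 cells were, and none was at least 2-fold higher, where 11.4% of all genes were. By the mean of log2 values the same 2 were lower by at least 1, where 0.693% of all genes were, and 3 were higher by at least 1 (*Chrna4*, *Chrnb2* and *Chrnb3*), where 21.2% of all genes were. On this scale *Chrna5* was only just past the mark, at −1.001. With a pseudocount of 10 it was at −0.50 and *Chrna3* at −0.71, so neither was lower by 1. By the summed counts the median log2 ratio was 0.12 over the 8 subunits and −0.05 over all genes. With single samples these counts have no error between animals.

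**Figure D3:**
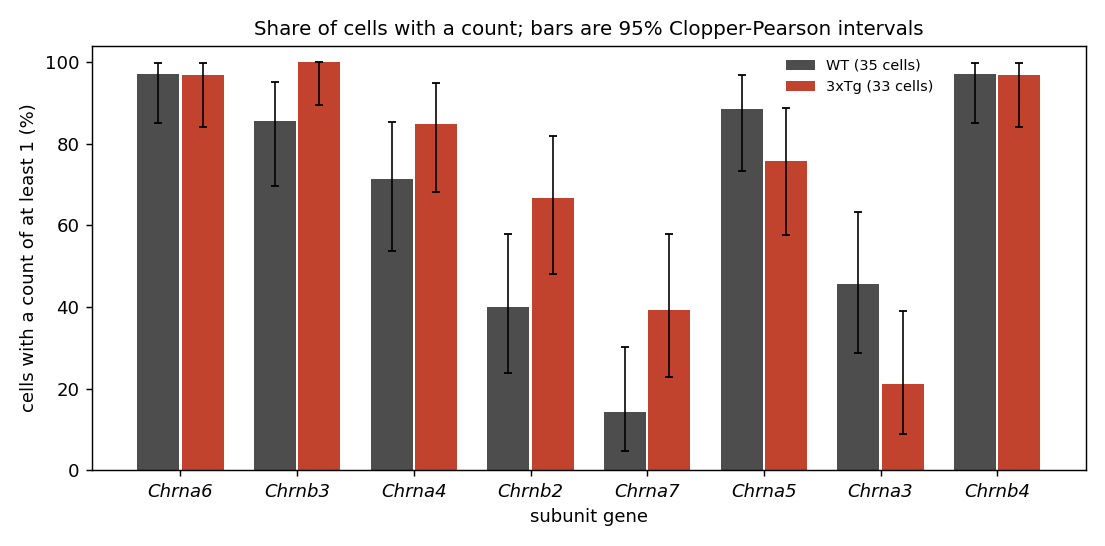
Percentage of WT (grey) and 3xTg (red) cells with a count of at least 1 of each subunit, with exact 95% Clopper-Pearson intervals over 35 and 33 cells. The intervals of the genotypes overlap for all 8 subunits, *Chrnb2*, *Chrna7* and *Chrna3* being furthest apart.

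The summed counts of markers of several other cell types were also lower in 3xTg, though not those of each marker. For the calls of markers below, 13.4% of all 13283 genes compared were at least 2-fold lower by the summed counts. The 5 microglia markers summed to 118 CPM in 3xTg and 408 in WT, running per cell from 0 to 3642 and from 0 to 2867, and 2 of the 4 that could be compared were at least 2-fold lower. The microglia sum was carried by few cells, its median per cell being 29.9 CPM in 3xTg and 24.1 in WT, and *Cx3cr1* was higher in 3xTg (14.2 and 11.8 CPM). *Tmem119*, the most specific of them, was counted in 1 cell. The 4 oligodendrocyte markers summed to 86.2 and 278 CPM (per cell 0 to 556 and 1.78 to 2538), with all 3 comparable markers at least 2-fold lower and *Mog* counted in 2 3xTg cells alone. Of the 4 astrocyte markers, 13.3 and 131 CPM in sum (per cell 0 to 272 and 0 to 2410), *Aldh1l1* was at 0 in all cells, nearly all of the sum was *Slc1a3*, counted in 5 and 8 cells, and *Gfap*, counted in 1 and 2 cells, stood at 1.53 and 0.91 CPM. The endothelial markers *Cldn5* and *Pecam1* were at 0 in all cells. Markers of other neurons were lower in sum as well. By the mean of log2 values, none of the GABA or glutamate markers that could be compared was lower by 1 or more. The 3 GABA neuron markers summed to 28.8 CPM in 3xTg and 44.3 in WT (per cell 1.10 to 168 and 3.14 to 267). Most of this was *Gad2* (25 and 34.3 CPM), counted in all 68 cells. Across cells *Gad2* had a Spearman correlation of 0.87 with the sum of olfactory, vomeronasal and taste receptor genes described below. Of the 2 that could be compared *Gad1* was at least 2-fold lower (log2 ratio −1.13). However, 188 of its 271 WT counts were in 1 cell, and its difference by the mean of log2 values was −0.07. The 3 glutamate neuron markers summed to 26.3 and 55.5 CPM (per cell 0 to 154 and 0 to 763), with a median per cell of 8.26 in both. Of the 2 that could be compared *Slc17a6*, counted in 8 3xTg and 6 WT cells, was at least 2-fold lower (15 and 35.4 CPM, −1.24). However, 952 of its 1205 WT counts, 54.3% of all its counts, were in 1 cell. By the mean of log2 values it was 0.38 higher in 3xTg. *Slc17a7* had 274 of its 275 WT counts in 1 cell. The interneuron marker *Pvalb* was at 0.27 and 1.35 CPM, counted in 1 and 2 cells. The part of any of these cell types in the subunit ratios was not tested. In the 39 cells without *Tmem119*, *P2ry12*, *C1qa* or *C1qb*, the log2 ratio was −2.0 for *Chrna3* and −1.72 for *Chrna5*. The same choice of cells moved *Chrna4* from 0.11 to −0.22.

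The low, widespread members moved with genes that dopamine neurons are not known for. *Chrna1*, the α subunit of the muscle receptor, was counted in all 68 cells at 70.2 CPM in 3xTg and 87.6 in WT. The 1474 olfactory, vomeronasal and taste receptor genes, a list chosen after the values were seen, summed to 328 CPM in 3xTg and 406 in WT, with 267 in the first WT run and 551 in the second. Across the 68 cells this sum had a Spearman correlation of 0.80 with the CPM of *Chrnb4* and 0.69 with that of *Chrna5*, against 0.33 for *Chrna3*, 0.09 for *Chrnb2*, −0.11 for *Chrna4*, −0.16 for *Chrna6* and −0.28 for *Chrnb3*. The points share their cell, its depth and its run, and all values are shares of the same total. Relative to these receptor genes, *Chrna3* was lower in 3xTg by a log2 ratio of −1.76, *Chrna5* by −0.80 and *Chrnb4* by −0.25. The part of such reads in the counts of *Chrnb4* and *Chrna5* was not tested.

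Most neurons held transcripts of several subunits. Between 3 and 8 of the 8 were counted per cell, with a median of 6 in 3xTg and 5 in WT, and 4 cells held all 8. The median was 5 in both genotypes within the first runs and where a minimum of 5 or of 10 counts was asked for, and it was 7 in 3xTg and 6 in WT within the second runs. *Chrna6* and *Chrnb3* were counted together in 61 of 68 cells. *Chrna4*, *Chrna6*, *Chrnb2* and *Chrnb3* together, the subunits of the α4α6β2β3 receptor, were counted in 20 of 33 3xTg cells (60.6%, 42.1% to 77.1%) and 11 of 35 WT cells (31.4%, 16.9% to 49.3%), which were also all the cells with both *Chrna4* and *Chrnb2*. All 23 cells with *Chrna3* also had *Chrnb4*, which almost every cell had. *Chrnb2* or *Chrnb4*, the β subunits that can complete an α-containing receptor, was counted in 67 of 68 cells. This rested in many cells on low counts of *Chrnb4*, as *Chrnb2* was counted in 36. With a minimum of 10 counts, *Chrnb4* was counted in 60.6% of 3xTg and 80% of WT cells.

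Across cells the correlations between members were weak to moderate. *Chrnb3* correlated with *Chrna6* (Spearman 0.47) and with *Chrna4* (0.43), while *Chrna5* correlated with *Chrnb4* (0.38) and with *Chrna3* (0.33). *Chrna3* and *Chrnb4* were at 0.16, below pairs such as *Chrna4* with *Chrna7* (0.25) and *Chrna6* with *Chrnb2* (0.23). The lowest value was that of *Chrnb3* and *Chrnb4*, −0.44. Within genotypes the pair *Chrna6* and *Chrnb3* was at 0.65 in 3xTg and 0.26 in WT, and *Chrna3* and *Chrna5* at 0.03 and 0.49. All are over normalised counts of the same 68 cells, which share depth and run, and are given as a description.

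**Figure D4:**
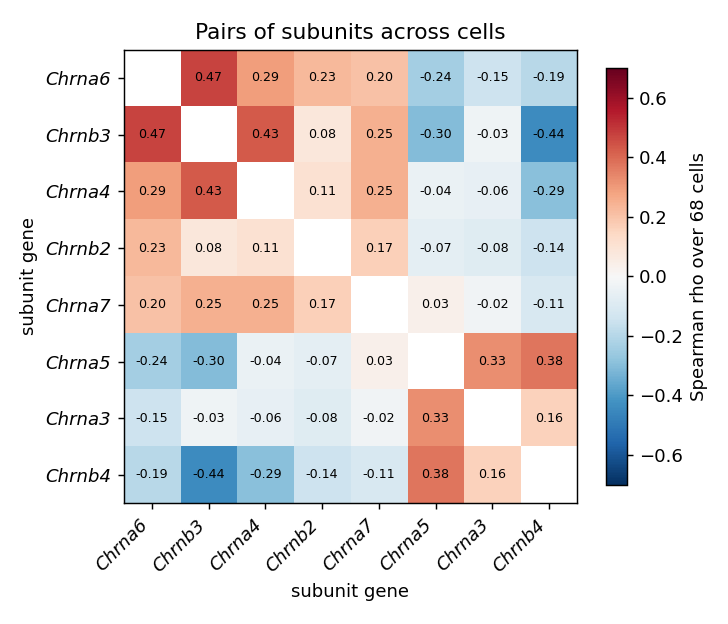
Spearman correlation of each pair of subunits over 68 cells, on log2(normalised count + 1), with red for positive and blue for negative values. The values run from −0.44 for *Chrnb3* with *Chrnb4* to 0.47 for *Chrna6* with *Chrnb3*.

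The genes most alike to each subunit over the 68 cells were taken from 7303 genes counted in at least 50% of cells. *Chrnb3* was closest to the glycolytic enzyme gene *Aldoa* (0.73) and to *Nsf* (0.68), of vesicle fusion. *Chrna6* was closest to *Ap2m1* (0.72), a subunit of the clathrin adaptor, *Sfr1* (0.70) and *Snap47* (0.70). On CPM these 3 values were lower, at 0.52, 0.42 and 0.46, as were those of *Chrnb3* with *Aldoa* (0.56) and *Nsf* (0.51). *Chrna4* was closest to *Atp6v1e1* (0.65), a subunit of the vacuolar proton pump, *Canx* (0.60), an endoplasmic reticulum chaperone, and *Gpm6a* (0.60). *Chrnb2* was closest to *Ptcd3* (0.57), *Oat* (0.57) and *Por* (0.55). *Chrnb4* was closest to *Birc5* (0.68), a gene of dividing cells, *G730013B05Rik* (0.68) and the clotting factor gene *F10* (0.66), and *Chrna5* to *9330159M07Rik* (0.67), the oocyte gene *Ooep* (0.66) and *Ighmbp2* (0.63). On CPM the values were higher for *Chrnb4* (0.82 to 0.83) and *Chrna5* (0.71 to 0.73) and lower for *Chrna4* (0.50 to 0.58) and *Chrnb2* (0.49 to 0.53). *Chrna3* and *Chrna7* were counted in too few cells for this comparison.

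Among proteins that fold or bind nicotinic receptors, 12 of 14 genes could be compared, with 1 at least 2-fold lower and 1 at least 2-fold higher in 3xTg by the summed counts, where 13.4% and 11.4% of all genes were. By the mean of log2 values 5 of the 12 were higher by at least 1 (*Ubqln1* 2.02, *Ly6h* 1.95, *Ubxn2a* 1.75, *Ric3* 1.69 and *Tmem35* 1.12) and none was lower by as much, where 21.2% and 0.693% of all genes were. *Lynx1*, a membrane-anchored brake on nicotinic receptors, was at 9.56 CPM in 3xTg and 26.4 in WT (log2 ratio −1.46, −1.65 to −1.28), counted in 10 and 13 cells, with 380 of the 897 WT counts in WT cell 9, without which the ratio was −0.72. *Ubqln1*, a ubiquitin-like protein that acts on subunit supply, was at 82.1 and 39.7 CPM (1.05, 0.95 to 1.14), and without 3xTg cell 26 its ratio was 0.83. Neither ratio was past 2-fold without that 1 cell. The α7 chaperones *Ric3* (88.6 and 100.4 CPM) and *Tmem35* (44.4 and 62.4) had log2 ratios of −0.18 and −0.49, and of 0.04 and −0.03 without the WT cell highest in each, against 1.69 and 1.12 by the mean of log2 values. More 3xTg than WT cells had a count of either, 28 against 22 for *Ric3* and 18 against 12 for *Tmem35*.

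Of the other 8 nicotinic subunits, 4 could be compared and *Chrnb1* was at least 2-fold lower, where 13.4% of all genes were. It was counted in 5 3xTg and 4 WT cells at 0.27 and 4.34 CPM (log2 ratio −3.99, −5.09 to −3.08), with 67.6% of its counts in WT cell 11. Without that cell the ratio was −2.18, and by the mean of log2 values the difference of *Chrnb1* was −0.30. *Chrna9* and *Chrne* had no count in any cell. Of the 5 muscarinic receptor genes, *Chrm5*, the subtype of midbrain dopamine neurons, was counted in 13 of 33 3xTg cells and 9 of 35 WT cells at 14.6 and 24.2 CPM (log2 ratio −0.73, −0.89 to −0.58). WT cell 6 held 427 of its 825 WT counts, and without that cell the ratio was 0.27. Neither of the 2 muscarinic genes that could be compared passed 2-fold. *Ache*, which breaks down acetylcholine, was at 288 CPM in 3xTg and 218 in WT (log2 ratio 0.40, 0.36 to 0.45, and 1.27 higher in 3xTg by the mean of log2 values). Of the markers of cholinergic neurons, *Chat* was counted in 20 cells of each genotype at 1.53 and 2.82 CPM, and the transporter genes *Slc18a3* and *Slc5a7* in 1 cell each.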

How the data were processed

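RNA of 68 single neurons was sequenced (2 × 100 bases, directional libraries, 28 PCR cycles). The authors trimmed the reads (5 bases per end), used Strand NGS 4.0 for alignment to RefSeq transcripts of mm10 at 90% identity or more, and removed duplicates. They deposited estimated counts per gene and, beside them, log2 values normalised with DESeq2 and shifted for each gene by an unstated amount, used here as an alternative alone. Groups came from the labels. Counts were summed over the cells of a genotype as CPM, and a ratio of 2-fold was the mark, since no test was possible. Genes with a count of at least 1 in 10% of cells (7 cells) were compared. Normalised counts used size factors over 787 genes, with a pseudocount of 1. Intervals are exact at 95%. The 3 genes most alike were named for each subunit counted in 50% of cells (1 of them, and 1 transgene, are not reported here), and the lists were other nicotinic subunits, chaperones and binding proteins, muscarinic receptors, acetylcholine genes and cell type markers. Members and lists were chosen with earlier results of these data known. Values came from Python 3.11.15 with numpy 2.4.6, scipy 1.17.1 and pandas 2.3.3, and TMM factors from edgeR 4.0.16 in R 4.3.3. The calculations were tested on simulated data.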

Additional observations from a re-analysis of the deposited data

How the results depend on the processing

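No paired analysis was possible because the genotypes share no label number and no test was run. The main limits are that each genotype is 1 sample, that label numbers and genotype fall in separate runs, and that several members had few counts. *Chrna6*, *Chrnb3*, *Chrna3*, *Chrna5* and *Chrnb4* kept the sign of their log2 ratio in all 14 settings other than leaving out a cell, *Chrnb2* in 11 and *Chrna4* and *Chrna7* in 10 each. *Chrna3* stayed past 2-fold in 13 and *Chrna5* in 9. The number of subunits past 2-fold, 2 as reported, was 1 with size factors before summing, over cells with a count alone, within the first runs, relative to sensory receptor genes (added after the data were seen) and with a pseudocount of 10, 3 without cells holding microglia markers (*Chrna3*, *Chrna5* and *Chrna7*, all lower), 4 within the second runs (3 lower, 1 higher), 5 by the mean of log2 values and by the authors' normalised values (2 lower and 3 higher in both), and 6 with a pseudocount of 0.1 (2 lower, 4 higher). With a pseudocount of 10 the 1 was *Chrnb3*, higher in 3xTg. The median log2 ratio, 0.12 as reported, was 0.72 by the mean of log2 values, 1.12 with a pseudocount of 0.1, 0.40 with 10, −0.34 over cells with a count, −0.25 without cells holding other-type markers, −0.43 without cells holding microglia markers (added), −0.19 within the second runs, 0.71 by the authors' normalised values and 0.43 relative to sensory receptor genes. The median of all genes was 0.35, 0.60, 0.13 and 0.02 under the first 4 of these. The mean of CPM over cells, which also weights cells alike, gave a median of 0.15 and 2 subunits. The cause of these shifts was not tested. Leaving out 1 cell gave medians from −0.075 (without 3xTg cell 32) to 0.22 and from 1 to 3 subunits past 2-fold, 1 without WT cell 5 or 95 (*Chrna5*) and 3 without WT cell 94 (*Chrna7*). *Cx3cr1* was kept out of the microglia choice because with it only 4 cells remained.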
